A study of Rattus norvegicus with 43 samples.

Results

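Ribosome biogenesis factors are the proteins that make ribosomal RNA (rRNA), modify and cut it, and assemble it with ribosomal proteins into the small and large subunits. A list of 60 such genes was followed in rat liver and in rat primary hepatocytes (RPH) before and during culture. The genes were listed by what they are known to do, but with earlier results of these data known. Each was matched to the array by its symbol. Of the 60, 58 had a probe set (a group of short probes for 1 transcript) annotated to that gene alone, and 57 passed a filter on dim probe sets, among 10644 genes tested in all. The 57 were placed in 4 groups by role, which held 7 genes for RNA polymerase I and its factors, 11 for nucleolar proteins and small nucleolar ribonucleoproteins (snoRNPs), 21 for the small subunit and 18 for the large subunit. The 3 listed genes that were not tested were the following: Noc3l was under the filter, the probe sets of Npm1 were annotated to Npm1 and Npm1-ps9 together, and no probe set in the annotation used here was named Npm3.

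In the nucleolus, RNA polymerase I copies the rRNA genes into 1 long precursor, which box C/D and box H/ACA snoRNPs then methylate and pseudouridylate. The small subunit processome folds and cuts the part that becomes the small subunit, and a separate line of GTPases, helicases and scaffold complexes builds the large subunit and takes it to the cytoplasm. Genes of these steps are known to be switched on together when a resting cell begins to grow, and MYC is a known activator of many of them.

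The samples came from 3 male Sprague Dawley rats with no treatment other than cell isolation and culture, and the age of the rats was not given in the sources used here. From each rat a lobe of liver, closed off before the organ was perfused, gave the liver sample, the pellet of freshly isolated hepatocytes gave the 0 h sample, and hepatocytes on collagen-coated plates gave samples at 4, 24 and 48 h. The cultures were in William's E medium with glutamate, gentamicin, insulin, transferrin and dexamethasone, and serum was present in the first 4 h and absent afterwards. Each rat and group was measured on 2 or 3 technical arrays, 43 arrays in all, and the technical arrays were averaged to give 15 samples, 3 rats in each of 5 groups.

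Values are array signals, a linear brightness scaled to the same trimmed mean of 500 on each array, and changes were tested on the log2 scale within a probe set. The level of one probe set was not set against that of another, and linear signals were added up over several probe sets only for the cell type markers. Over the members, the median SD was 0.11 between technical arrays and 0.19 between rats on the log2 scale, so the number of rats set the precision. The defining hepatocyte gene Alb had a signal of 24575 to 41315 in the 15 samples. Another hepatocyte marker, Hnf4a, had lower signals at 48 h (5552, 4467 and 5896) than at 0 h (11100, 13141 and 7906). The actin ratio, which sets the control probe sets at the 3' end of beta-actin against those at its 5' end and increases when RNA is degraded, averaged 4.60 ± 2.05 in liver and 3.90 ± 0.65, 2.97 ± 0.14, 2.35 ± 0.14 and 2.22 ± 0.25 at 0, 4, 24 and 48 h (SD, n = 3). The liver samples of rats 1 and 2 followed their own rat no more closely than the other rat, with a residual correlation to the 0 h sample of 0.21 for rat 1 with itself and 0.23 with rat 2, and of 0.02 for rat 2 with itself and 0.05 with rat 1. This touches the fit that pairs samples by rat and the comparisons with liver in which a rat is left out.

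At 4 h of culture, 50 of the 57 tested members had risen relative to 0 h and 0 had fallen, while over all genes tested 16.3% rose and 22.7% fell (limma, Benjamini-Hochberg adjusted p under 0.05). With an unadjusted p under 0.05, 53 members were higher and 0 were lower. Shares of all genes given as higher or lower are for the adjusted p, here and below. Counts at an unadjusted p therefore have no share of all genes to be read against. The median log2 fold change of the members was 1.24, and it was 1.11, 1.42 and 1.27 in rats 1, 2 and 3, against a median of -0.15 over all genes. In 53 members every rat at 4 h was above every rat at 0 h, as was the case for 19.4% of all genes. The signal at 4 h was more than 2 times that at 0 h for 39 members, a count given without the share of all genes.

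The 4 h group also held the highest mean signal of the 5 groups for 50 of the 57 members. The exceptions were Ubtf, highest in liver, Nop10, highest at 0 h, Nhp2, Tbl3 and Mrto4, highest at 24 h, and Utp18 and Ddx56, highest at 48 h. Each such order is a description, and neighbours in it can lie within the spread between rats. The group with the highest mean was found for the members alone and not for all genes.

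**Figure D1:**
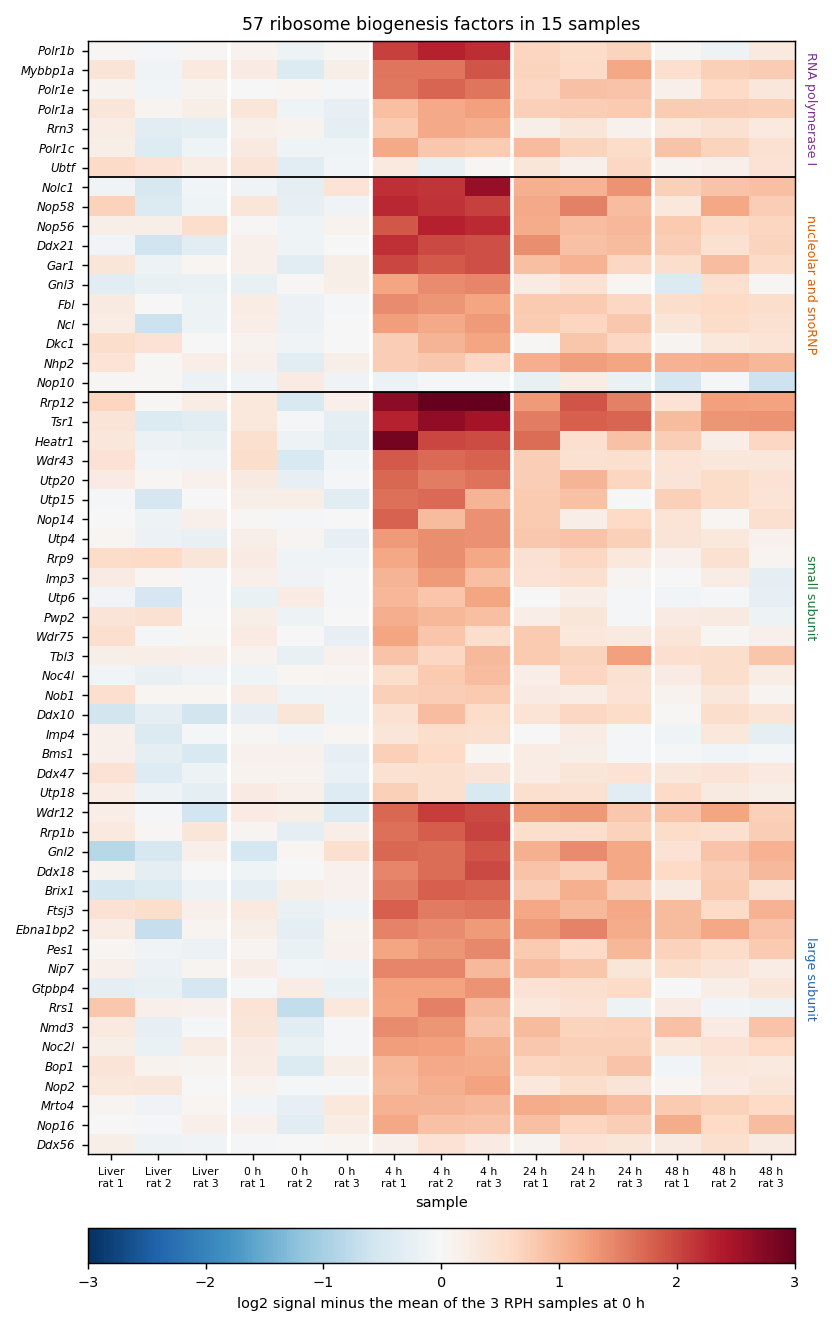
Colour shows the log2 signal of each of 57 members (rows, by role group and by change at 4 h) in each of 15 samples (columns), minus the mean of the 3 RPH samples at 0 h. The 3 columns at 4 h are the darkest red, and the liver and 0 h columns lie near 0.

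**Figure D2:**
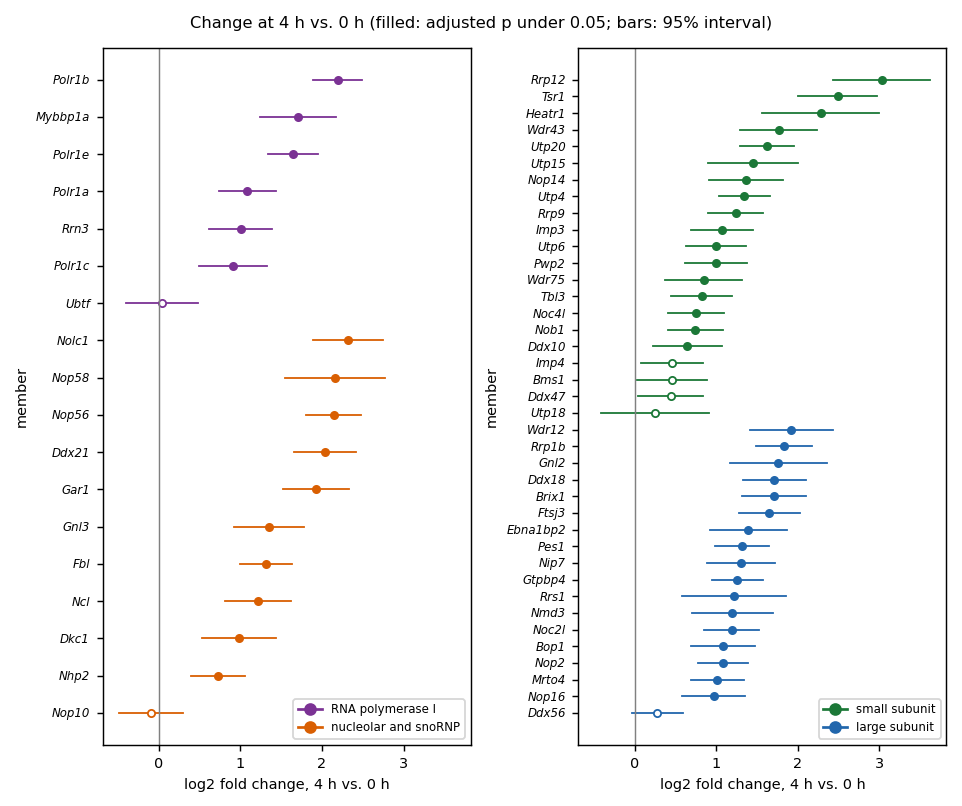
Points show the log2 fold change at 4 h vs. 0 h of each member by role group, and bars show its 95% interval. Filled points passed an adjusted p of 0.05 (50 members) and open points did not (7 members).

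Among the genes of RNA polymerase I, 6 of 7 rose at 4 h vs. 0 h, with a median log2 fold change of 1.08 for the 7. Polr1b, the second largest subunit of the enzyme, had a signal of 1376, 1625 and 1532 in the 3 rats at 4 h, against 358, 298 and 337 at 0 h (log2 fold change 2.19, SE 0.14, adjusted p = 2.69e-07). All rats at 4 h lay far above all rats at 0 h, and the 3 rats of a group were close together. Mybbp1a, a nucleolar Myb-binding protein, changed by 1.71, Polr1e, another subunit of the enzyme, by 1.64 and Polr1a, the largest subunit, by 1.08 on the log2 scale. Rrn3, which brings the polymerase to the promoter, changed by 1.00, and Polr1c, shared with RNA polymerase III, by 0.91.

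Ubtf, the upstream binding factor of the rRNA genes, was the member of this group that did not pass the test. Its signal was 464, 326 and 387 at 4 h, against 495, 306 and 359 at 0 h (log2 fold change 0.04, SE 0.20, adjusted p = 0.911). The groups overlapped, and within each of rats 2 and 3 the 4 h sample was slightly above the 0 h sample while in rat 1 it was below. The other Ubtf probe sets that passed the filter differed by -0.01 and -0.25 between 4 h and 0 h on the log2 scale.

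Of the nucleolar and snoRNP proteins, 10 of 11 rose at 4 h vs. 0 h, with a median log2 fold change of 1.35. Nolc1, a nucleolar phosphoprotein that binds snoRNPs, had the largest change, with signals of 1918, 1864 and 2587 at 4 h, against 387, 344 and 555 at 0 h (log2 fold change 2.32, SE 0.20, adjusted p = 2.57e-06). The lowest rat at 4 h was well above the highest rat at 0 h, which was rat 3. Its other probe sets past the filter gave 1.90 and 3.53 on the same scale. Among box C/D proteins, Nop58 changed by 2.16 and Nop56 by 2.14. Fibrillarin (Fbl), the methyltransferase of the same particles, had signals of 4015, 3782 and 3453 at 4 h, against 1771, 1344 and 1448 at 0 h (log2 fold change 1.31, SE 0.15, adjusted p = 2.09e-05). Nucleolin (Ncl), an abundant nucleolar RNA-binding protein, had 11495, 10621 and 11798 at 4 h, against 5539.9, 4271 and 4839 at 0 h (log2 fold change 1.22, SE 0.19, adjusted p = 2.37e-04). For both genes every rat at 4 h was above every rat at 0 h. The nucleolar helicase Ddx21 changed by 2.04 and nucleostemin, Gnl3, by 1.35.

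The 4 core proteins of box H/ACA snoRNPs, which act in 1 particle, had a wide range of changes at 4 h vs. 0 h. Gar1 had signals of 1881, 1694 and 1795 at 4 h, against 523, 377 and 529 at 0 h (log2 fold change 1.93, SE 0.19, adjusted p = 6.10e-06). Dyskerin (Dkc1), the pseudouridine synthase, had 973, 1183 and 1335, against 626, 544 and 588 (log2 fold change 0.98, SE 0.21, adjusted p = 0.00268). Nhp2 had 2211, 2301 and 2026, against 1459, 1055 and 1488 (log2 fold change 0.72, SE 0.16, adjusted p = 0.00262), and its call was lost without rat 2. In these 3 genes the rats at 4 h were all above the rats at 0 h. Nop10 had 6590.3, 7165 and 7082 at 4 h, against 6748, 8784 and 6842 at 0 h (log2 fold change -0.09, SE 0.18, adjusted p = 0.725), and its groups overlapped. The differences between the 4 genes were not tested.

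Of the small subunit factors, 17 of 21 rose at 4 h vs. 0 h, with a median log2 fold change of 1.00. Rrp12, which acts in the maturation and export of subunits, had the largest change of all members, with signals of 1562, 2135 and 2319 at 4 h, against 300.5, 176 and 270.1 at 0 h (log2 fold change 3.03, SE 0.27, adjusted p = 3.57e-06). The lowest 4 h sample, that of rat 1, was several times the highest 0 h sample, and the other Rrp12 probe sets gave 2.99 and 2.64. Tsr1, a late assembly factor, changed by 2.49. Heatr1, a processome protein that also acts with rRNA gene transcription, had 2359, 1304 and 1251 at 4 h, against 449, 290.1 and 258 at 0 h, so rat 1 was high in both groups (log2 fold change 2.28, SE 0.33, adjusted p = 1.61e-04). Processome proteins of the same early complex as Heatr1 also rose, Wdr43 by 1.76, Utp15 by 1.45, Utp4 by 1.34 and Wdr75 by 0.85. Of the remaining processome proteins, Utp20 rose by 1.62, Nop14 by 1.36, Utp6 by 1.00, Pwp2 by 1.00 and Tbl3 by 0.82, and the assembly factor Noc4l rose by 0.75. The U3 snoRNP proteins Rrp9 and Imp3 rose by 1.24 and 1.07. Nob1, the nuclease that makes the mature end of small subunit rRNA, had 1478, 1493 and 1541 at 4 h, against 1058, 824 and 836 at 0 h (log2 fold change 0.74, SE 0.16, adjusted p = 0.00239), with no overlap between the groups, and its call was lost without rat 3. The calls of Wdr75 without rat 2 and of the helicase Ddx10 without rat 1 or rat 3 were also lost.

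The other 4 small subunit factors did not pass the test at 4 h vs. 0 h. Imp4, a U3 snoRNP protein, had 2449, 2730.2 and 2657 at 4 h, against 1932, 1779 and 1988 at 0 h (log2 fold change 0.46, SE 0.18, adjusted p = 0.0551), with no overlap between the groups, and another probe set of the gene differed by 1.15. The helicase Ddx47 had 1152, 1179.6 and 1102, against 909, 905 and 730.2 (log2 fold change 0.44, SE 0.18, adjusted p = 0.0744), again without overlap. Bms1, a GTPase of the processome, had 1068, 995 and 678, against 713, 714 and 553 (log2 fold change 0.45, SE 0.20, adjusted p = 0.0895), and rat 3 at 4 h was below rats 1 and 2 at 0 h. With the rat as a block Bms1 passed the test. Utp18, another processome protein, had 319, 269 and 142, against 229, 214 and 148 (log2 fold change 0.25, SE 0.31, adjusted p = 0.553), and its groups overlapped, with rat 3 low in both. For Imp4, Ddx47 and Bms1 the unadjusted 95% interval of the change lay above 0, with lower ends of 0.08, 0.04 and 0.02, so these p-values do not show that the genes were unchanged.

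Of the large subunit factors, 17 of 18 rose at 4 h vs. 0 h, with a median log2 fold change of 1.28 and a range of 0.27 to 1.92. Wdr12 had the largest change, with 1274, 1617 and 1524 at 4 h, against 457, 437 and 289.8 at 0 h (log2 fold change 1.92, SE 0.24, adjusted p = 4.51e-05). It forms the PeBoW complex with Pes1 and Bop1, which rose by 1.32 and 1.08. In all 3 genes of this complex the 4 h samples were above the 0 h samples in every rat. The nucleolar protein Rrp1b rose by 1.83, the GTPases Gnl2 and Gtpbp4 by 1.76 and 1.26, the helicase Ddx18 by 1.71, the assembly factor Brix1 by 1.71 and the rRNA methyltransferase Ftsj3 by 1.65. Nmd3, the adaptor for nuclear export of the large subunit, rose by 1.20. The assembly factors Ebna1bp2, Nip7, Noc2l, Mrto4 and Nop16 rose by 1.39, 1.30, 1.19, 1.01 and 0.97, and the rRNA methyltransferase Nop2 by 1.08. Rrs1, a factor of large subunit assembly, rose by 1.22, and its call was lost without rat 2. The helicase Ddx56 had 610.2, 744 and 661 at 4 h, against 541, 545 and 574 at 0 h (log2 fold change 0.27, SE 0.15, adjusted p = 0.153), and did not pass although the groups did not overlap.

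Because most members moved together at 4 h, their promoters were searched for CACGTG, the E-box that MYC and MAX and several other factors can bind. The motif reads the same on both strands. Promoters were taken from RefSeq on the rat build GRCr8 as windows of 250 bases before and 50 bases after 1 start base for each entry, and 52 of the 57 tested members had one. In 33 of 53 member entries that base was the outer end of the gene in the RefSeq gene table. In the other 20 it lay inside the gene, by a median of 271 bases. It lay farthest inside in Nmd3 (37134 bases) and Utp4 (5804 bases), and the Utp4 window held the motif. The motif was present in 14 of these 52 promoters (26.9%), in 889 of the 8918 promoters of tested genes (9.97%) and in 1943 of 27457 promoters in all (7.08%). Of the members that rose at 4 h, 13 of 45 held it (28.9%), and of those that did not pass, 1 of 7 (14.3%). In the 250 bases before the start alone the shares were 9 of 52 (17.3%) of members and 8.70% of tested genes. The match is one of letters, and neither binding nor an effect on the signal was measured. Gnl2, Rrs1, Bop1, Wdr43 and Tbl3 are the tested members without a promoter in the table.

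The promoters of 4 members are shown to set the motif beside the change at 4 h: Rrp12, with the largest change, Mybbp1a, with the motif at 2 places, Utp18, with the motif at 2 places and no called change, and Nolc1, with a large change and no motif. Each sequence holds 200 bases before the start and 30 bases from the start on, is written in the direction of the gene, and has CACGTG in capitals. The start base is the outer end of the gene for Rrp12 and Mybbp1a, and it lies 484 bases inside the gene for Utp18 and 164 bases inside for Nolc1. Rrp12 is at chr1:250655289-250655518 (minus strand), Mybbp1a at chr10:57555258-57555487 (plus strand), Utp18 at chr10:79335728-79335957 (minus strand) and Nolc1 at chr1:254870159-254870388 (plus strand), all on GRCr8.
Rrp12: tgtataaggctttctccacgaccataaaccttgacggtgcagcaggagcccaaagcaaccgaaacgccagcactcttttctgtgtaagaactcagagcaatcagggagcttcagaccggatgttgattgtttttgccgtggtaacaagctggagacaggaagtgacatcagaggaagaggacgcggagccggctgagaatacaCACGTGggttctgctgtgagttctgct
Mybbp1a: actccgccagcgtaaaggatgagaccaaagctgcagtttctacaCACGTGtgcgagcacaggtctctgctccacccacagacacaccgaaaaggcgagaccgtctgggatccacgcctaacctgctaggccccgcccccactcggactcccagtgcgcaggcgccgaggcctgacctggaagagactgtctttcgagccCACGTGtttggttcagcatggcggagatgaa
Utp18: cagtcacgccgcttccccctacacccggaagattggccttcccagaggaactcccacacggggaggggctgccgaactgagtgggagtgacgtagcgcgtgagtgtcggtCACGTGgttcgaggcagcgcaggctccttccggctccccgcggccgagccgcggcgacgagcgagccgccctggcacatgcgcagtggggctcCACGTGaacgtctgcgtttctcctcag
Nolc1: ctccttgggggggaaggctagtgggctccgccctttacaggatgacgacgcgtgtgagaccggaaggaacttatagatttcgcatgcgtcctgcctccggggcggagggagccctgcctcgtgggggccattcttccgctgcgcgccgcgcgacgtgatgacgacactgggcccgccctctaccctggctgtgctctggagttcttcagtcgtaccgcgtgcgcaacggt
With the start base counted as 0, the motif began at base 3 in Rrp12, at -156 and -1 in Mybbp1a and at -90 and 3 in Utp18. Utp18 and Nolc1 were picked because the motif and the size of the change did not go together in them. They say nothing about the members as a whole. The other members that held it were the snoRNP proteins Dkc1 and Fbl, Gnl3, the small subunit factors Tsr1, Utp20, Utp4 and Wdr75, and the large subunit factors Ddx18, Ebna1bp2, Nop2 and Pes1.

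At 24 h, when the medium had held no serum since 4 h, 38 members were higher than at 0 h and 0 were lower, against 24.2% and 17.3% of all genes. Their median log2 fold change was 0.72, and that of all genes 0.09. Relative to 4 h, 35 members had fallen by 24 h and 1 had risen, while 13.5% of all genes fell and 26.3% rose, and the median of the members was -0.60. The count of falls was 23 without rat 2 and 20 without rat 3. Between 24 h and 48 h only Polr1b passed the test, at 48 h vs. 24 h, where 1.78% of all genes fell and 2.51% rose. With an unadjusted p under 0.05, 9 members were lower at 48 h vs. 24 h and 0 were higher, and the median was -0.21.

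At 48 h, 26 members were higher than at 0 h and 0 were lower, against 26.6% and 17.5% of all genes, and the median of the members was 0.44, against 0.12 for all genes. Without rat 2 the count was 8, and without rat 3 it was 15. Relative to 4 h, 43 members were lower at 48 h and 0 were higher, against 17.1% and 31.4% of all genes, with a median of -0.89. With an unadjusted p under 0.05, 44 were lower and 0 were higher. The comparisons with 0 h share the 0 h samples, and those with 4 h share the 4 h samples.

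Put together over the times, 17 members rose at 4 h, fell between 4 h and 24 h and did not pass at 48 h vs. 0 h, 10 of them in the small subunit group. Another 17 rose, fell between 4 h and 24 h and were still higher at 48 h than at 0 h, of which 7 belonged to the large subunit and 6 to the nucleolar group. A further 8 rose at 4 h, did not pass at 24 h vs. 4 h and were higher at 48 h than at 0 h, 5 of them large subunit factors. For 6 members the rise at 4 h was the only one of these steps that passed. The 2 single patterns were those of Polr1b and Nhp2, and the 7 members not called at 4 h were not called at 24 h vs. 4 h, 48 h vs. 24 h or 48 h vs. 0 h. These patterns were counted for the members alone. Whether they differ from those of all genes, or between role groups, was not tested.

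Polr1b had the largest fall after 4 h. Its signal was 1376, 1625 and 1532 at 4 h, 517, 481 and 526 at 24 h and 336, 296 and 402 at 48 h (log2 fold change -2.14, SE 0.14, adjusted p = 1.46e-07 for 48 h vs. 4 h). The 48 h samples overlapped the 0 h samples (log2 fold change 0.05, SE 0.14, adjusted p = 0.800), and the difference at 48 h vs. 24 h was -0.57 (adjusted p = 0.0359) on the log2 scale. The other subunits of the enzyme differed less between 48 h and 4 h: Polr1a by -0.34 (adjusted p = 0.0961), Polr1c by -0.25 (adjusted p = 0.301) and Polr1e by -1.28 (adjusted p = 1.05e-05). Polr1a had 491, 482 and 475 at 48 h, against 374, 263 and 245 at 0 h (log2 fold change 0.74, SE 0.16, adjusted p = 0.00242), so all rats at 48 h were still above all rats at 0 h. The difference between Polr1b and Polr1a was not tested.

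Rrp12 had the second largest fall, with 591, 895 and 694 at 24 h and 330.4, 569 and 559 at 48 h (log2 fold change -2.07, SE 0.27, adjusted p = 4.29e-05 for 48 h vs. 4 h). Rats 2 and 3 at 48 h were well above their 0 h samples and rat 1 only slightly, and the change at 48 h vs. 0 h was 0.96 (adjusted p = 0.012). Tsr1 was the member with the largest difference at 48 h vs. 0 h, with 1883, 2431 and 2445 at 48 h, against 1209, 948 and 789.8 at 0 h (log2 fold change 1.21, SE 0.22, adjusted p = 7.02e-04). Nolc1 had 885, 858 and 1068 at 24 h and 683, 762 and 785 at 48 h, all above the 0 h samples (log2 fold change 0.82, SE 0.20, adjusted p = 0.00457 for 48 h vs. 0 h). Fibrillarin had 2167, 2270.2 and 2162 at 48 h (log2 fold change 0.54, SE 0.15, adjusted p = 0.00908 for 48 h vs. 0 h), and nucleolin had 6198, 7115 and 6646 (log2 fold change 0.45, SE 0.19, adjusted p = 0.0658). Both groups of 48 h samples lay above the 0 h samples in every rat, but only the change of fibrillarin passed, and with the rat as a block that of nucleolin passed as well. Nob1 had 968, 1142 and 957 at 48 h, which overlapped its 0 h samples (log2 fold change 0.18, SE 0.16, adjusted p = 0.379).

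Some members were near their 0 h signal at 48 h and others stayed above it, and 5 of them are given as examples chosen after their values were seen. Nucleostemin had 3248, 3814 and 3949.8 at 4 h and 1079.6, 1982 and 1471 at 48 h, against 1233, 1463 and 1627 at 0 h (log2 fold change 0.03, SE 0.20, adjusted p = 0.908 for 48 h vs. 0 h), and its 48 h samples overlapped those at 0 h, with rat 2 the highest. Utp6, a processome protein, had 2782, 2472 and 3175 at 4 h and 1321, 1369.7 and 1175 at 48 h, against 1210.1, 1663 and 1358 at 0 h (log2 fold change -0.12, SE 0.17, adjusted p = 0.596). Rrs1 had 2014, 2519.7 and 1750.3 at 4 h and 1061, 834 and 801 at 48 h, against 1187, 535 and 1107 at 0 h (log2 fold change 0.00, SE 0.30, adjusted p = 0.994). In both genes the 48 h samples overlapped the 0 h samples, and for Rrs1 rat 2 was the low one at 0 h. There was no such overlap in Ebna1bp2 and Nop16, both factors of large subunit assembly. Ebna1bp2 had 2592, 2501 and 2241 at 4 h and 1799, 2069.8 and 1681 at 48 h, against 1058, 759.8 and 998 at 0 h (log2 fold change 0.99, SE 0.22, adjusted p = 0.00254). Nop16 had 2926, 2402 and 2338 at 4 h and 2818, 1981 and 2454 at 48 h, against 1431, 1021 and 1507 at 0 h (log2 fold change 0.88, SE 0.18, adjusted p = 0.00149). In both, each rat at 48 h was above each rat at 0 h. The 48 h samples of Ebna1bp2 were below all its 4 h samples, and those of Nop16 overlapped its 4 h samples.

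Nhp2 and Ubtf were the members with the largest positive differences at 48 h vs. 4 h, and neither passed. Nhp2 had 2818, 3157 and 3015 at 24 h and 2708, 2828 and 2618 at 48 h, with differences to 4 h of 0.46 (adjusted p = 0.0308) at 24 h and 0.32 (adjusted p = 0.105) at 48 h. It was the 1 member called higher at 24 h than at 4 h, and this call was lost without rat 1, without rat 2 and without rat 3, and with median centring, with no filter and with the first technical array alone. At 48 h vs. 0 h Nhp2 had a log2 fold change of 1.04 (adjusted p = 1.23e-04). Its partner Gar1 fell by 24 h (-1.07 (adjusted p = 5.94e-04) at 24 h vs. 4 h), and Dkc1 and Nop10 differed by -0.49 (adjusted p = 0.0829) and 0.03 (adjusted p = 0.930). Ubtf had 490.1, 423 and 586 at 24 h, 407, 421 and 514 at 48 h and 562, 508 and 439 in liver. Each of these groups overlapped the 4 h group (log2 fold change 0.20, SE 0.20, adjusted p = 0.457 for 48 h vs. 4 h). The other Ubtf probe sets past the filter differed by 0.62 and 0.32 at 48 h vs. 4 h, without a test. Mrto4, related to the ribosomal stalk protein, stayed near its 4 h signal at 24 h (0.02 (adjusted p = 0.921) at 24 h vs. 4 h), while another probe set of the gene differed by 2.00 at 4 h vs. 0 h and by -1.34 at 48 h vs. 4 h.

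**Figure D3:**
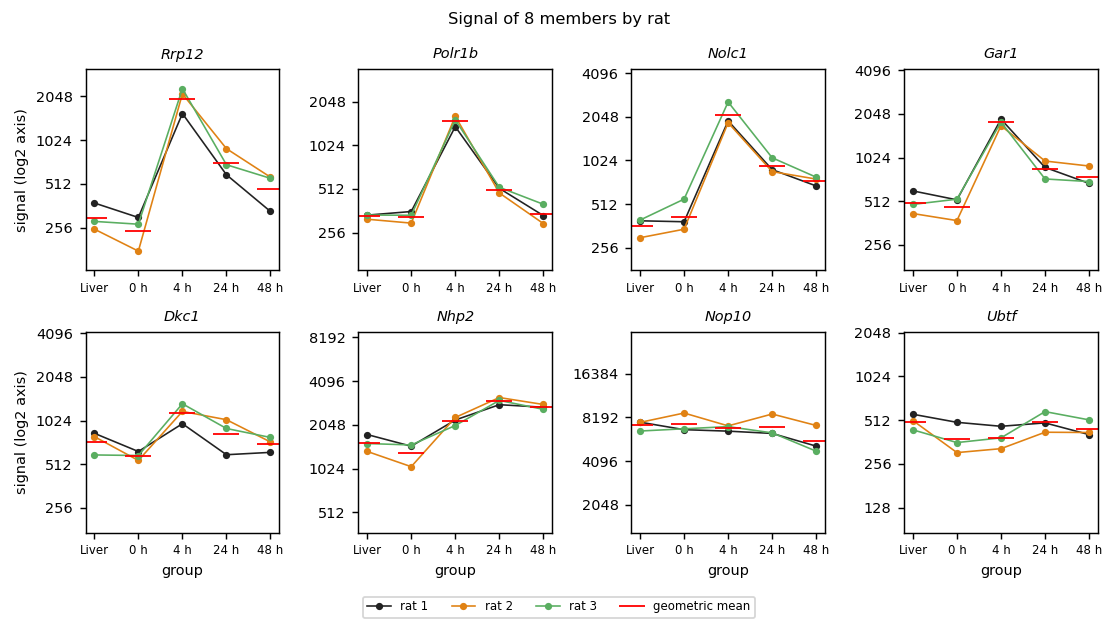
Points and lines show the signal of 8 members in each rat (log2 axis spanning the same fold in each panel) in liver and at 0, 4, 24 and 48 h, and red bars show the geometric mean of the 3 rats. Rrp12, Polr1b, Nolc1 and Gar1 peak at 4 h, Nhp2 is highest at 24 h, and Nop10 and Ubtf show no peak at 4 h.

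The role groups had different shares of members higher at 24 h and 48 h than at 0 h, and the differences between them were not tested. Over all genes 24.2% were higher at 24 h and 26.6% at 48 h. Of the large subunit factors 16 of 18 were higher at 24 h and 12 of 18 at 48 h, with median log2 fold changes of 0.77 and 0.62. Of the small subunit factors 9 of 21 were higher at 24 h and 4 of 21 at 48 h, with medians of 0.46 and 0.32. The 4, a smaller share than that of all genes at 48 h, were Tsr1, Rrp12, Tbl3 and Utp20. Of the nucleolar proteins 8 and 7 of 11 were higher, with medians of 0.86 and 0.62, and of the polymerase I group 5 and 3 of 7, with medians of 0.72 and 0.36. The 48 h medians of rats 1, 2 and 3 were 0.54, 0.72 and 0.56 for the large subunit and 0.14, 0.39 and 0.41 for the small subunit. Without rat 2 the counts at 48 h were 5 large subunit, 1 small subunit, 2 nucleolar and 0 polymerase I members, and without rat 3 they were 9, 2, 4 and 0. The small subunit count at 48 h was 1 without the 0 h sample of rat 2 and 2 without the 48 h sample of rat 2 or of rat 3. At 24 h the large subunit count was 10 without rat 2, the polymerase I count 3 without rat 2 and 2 without rat 3, and the small subunit count 5 without the 0 h sample of rat 3. With the rat as a block, 7 small subunit members were higher at 48 h.

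**Figure D4:**
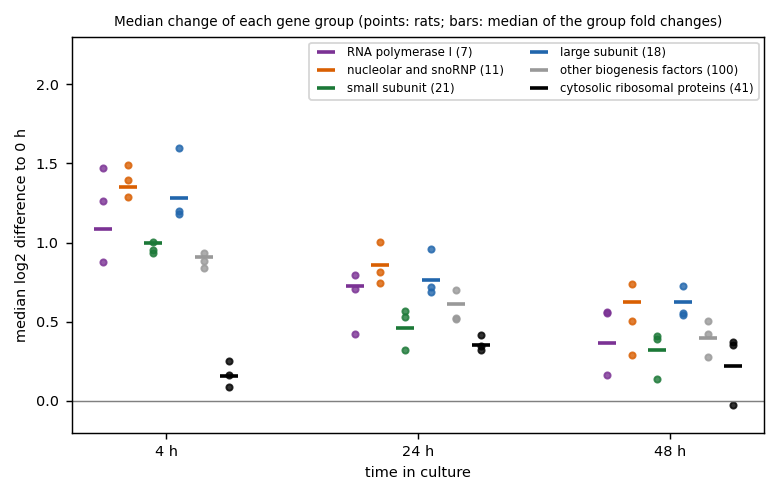
Bars show the median log2 difference to 0 h of each role group and of 2 comparison lists at 4, 24 and 48 h, points show the same median in each rat, and the numbers in the legend are genes tested. All 4 role groups are highest at 4 h and lower at 24 and 48 h, while the cytosolic ribosomal proteins stay between -0.02 and 0.42 in every rat and time.

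In freshly isolated hepatocytes, at 0 h vs. liver, 0 members passed in either direction (limma), beside 0.141% of all genes higher and 0.432% lower. At an unadjusted p under 0.05, 2 members were higher and 1 was lower, and the median of the members was -0.01. Against liver, 53 members were higher at 4 h (median 1.27), 36 at 24 h (median 0.68) and 27 at 48 h (median 0.45), and 0 were lower at any of these times, where 16.4%, 23.7% and 25.4% of all genes were higher and 29.8%, 23.9% and 22.6% lower. The count at 48 h was 11 without rat 2, 14 without rat 3 and 17 without the liver sample of rat 2. With each array centred on its median it was 41, but that centring also moved the median of all genes at 48 h vs. liver to 0.43, against 0.04 without it, and gave 4319 genes higher and 1442 lower, against 2701 and 2402.

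The other genes that act in ribosome biogenesis were read as a comparison. From a list of 120 further factors, 100 were tested, of which 72 rose and 0 fell at 4 h vs. 0 h, with a median of 0.91, where 16.3% of all genes rose and 22.7% fell. At 48 h vs. 0 h 38 were higher and 1 was lower, where 26.6% of all genes were higher and 17.5% lower. The 3 with the largest changes were Polr1g, a subunit of RNA polymerase I, Sdad1, and Mdn1, the AAA ATPase of large subunit maturation. Polr1g had 312, 460.4 and 506 at 4 h, against 64.5, 50.8 and 90.2 at 0 h (log2 fold change 2.65, SE 0.28, adjusted p = 1.28e-05), a dim signal at 0 h and a clear one at 4 h. The array medians at 0 h were 87.7 to 116, and the filter needed 5 arrays above the median. Polr1g could therefore pass the filter through the cultured samples, where it was high. Sdad1 had 682, 692 and 775, against 157, 178 and 152 (log2 fold change 2.14, SE 0.17, adjusted p = 1.58e-06). Mdn1 had 660.1, 577 and 617, against 216, 204 and 72.4 (log2 fold change 2.07, SE 0.33, adjusted p = 3.31e-04), and rat 3 was the low one at 0 h. None of these 3 genes overlapped between the groups.

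The ribosomal proteins themselves, which the biogenesis factors assemble, had a median change nearer 0 at 4 h vs. 0 h than the biogenesis factors, a difference that was not tested. Of 41 cytosolic ribosomal proteins tested, 3 rose and 0 fell at 4 h vs. 0 h, with a median of 0.16, and 13 were higher at 24 h (median 0.35) and 6 at 48 h (median 0.22), where 24.2% and 26.6% of all genes were higher. Of 73 mitochondrial ribosomal proteins, 7 rose and 15 fell at 4 h vs. 0 h (median -0.17), beside 16.3% and 22.7% of all genes and their median of -0.15.

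Myc itself had 1554, 3348 and 2912 at 4 h, against 1362, 731 and 1522 at 0 h (log2 fold change 1.11, SE 0.36, adjusted p = 0.026). Rat 1 differed little between the times and rats 2 and 3 clearly, though every 4 h sample was above every 0 h sample. After 4 h Myc did not pass, with differences of -0.22 (adjusted p = 0.667) at 24 h vs. 4 h and -0.36 (adjusted p = 0.442) at 48 h vs. 4 h on the log2 scale. Its partner Max had 3191, 2851 and 2608 at 4 h, against 2106, 1865 and 1233 at 0 h (log2 fold change 0.76, SE 0.20, adjusted p = 0.00812), and at 48 h vs. 4 h it differed by -0.97. Mxd4, a MAX partner that represses, had 282, 294 and 327 at 4 h, against 379, 469.7 and 449 at 0 h (log2 fold change -0.52, SE 0.19, adjusted p = 0.0411), and at 48 h vs. 4 h it differed by 1.08. Mlxip, a glucose-responsive factor of the same network, had 374, 368 and 369, against 221, 156 and 178 (log2 fold change 1.02, SE 0.16, adjusted p = 2.79e-04). Of the 10 network genes tested, 3 rose and 1 fell at 4 h vs. 0 h, where 16.3% of all genes rose and 22.7% fell. Mnt, Mxd1, Mxi1 and Mlx, with changes of -0.11, -0.14, -0.46 and 0.48, were among those not called at 4 h vs. 0 h. Of 19 genes of S phase and mitosis, 1 rose and 9 fell at that time, with a median of -0.87.

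Other measures moved over the same times. In a bulk sample fewer cells of a type and less RNA per cell cannot be told apart. The marker counts below stand beside 16.3% of all genes higher and 22.7% lower at 4 h vs. 0 h. At 48 h vs. 0 h these shares were 26.6% and 17.5%. The 9 hepatocyte markers tested (of 10) summed to 203967 to 228519 at 4 h, against 202724 to 248642 at 0 h, and to 143527 to 163570 at 48 h. The 10 endothelial markers (of 12) summed to 3608 to 5697 at 4 h, against 9160 to 12942 at 0 h, and 6 fell. Their sums at 48 h were 620 to 1203. The 10 Kupffer and macrophage markers (of 13) summed to 13598 to 15507 at 4 h, against 16481 to 17460 at 0 h, and 3 fell. Their sums at 48 h were 4739 to 6993. The 12 stellate and fibroblast markers summed to 915 to 2755 at 4 h, against 3324 to 7468 at 0 h, with 8 lower and 1 higher. At 48 h they summed to 5660 to 7198, but 5 were lower and 3 higher at 48 h vs. 0 h, with a median of -0.30, and the sum held a change of 8.43 in Tagln, a smooth muscle cytoskeletal protein. The 3 cholangiocyte markers (of 6) summed to 1892 to 3138 at 4 h, against 956 to 1102 at 0 h, with 2 higher. Their sums at 48 h were 2204 to 3133. The 2 lymphocyte markers (of 11) summed to 162 to 258 at 4 h, against 223 to 301 at 0 h, with 1 lower. The 4 erythroid genes (of 7) summed to 253 to 559 at 4 h, against 190.2 to 1719 at 0 h, with 0 called. At 48 h the sums were 64.1 to 76.2 for lymphocyte markers and 193 to 304 for erythroid genes. None of the markers had a signal of 0. The part of these cell types in the changes of the members was not tested. With the actin 3'/5' ratio as a covariate, 52 members were higher at 4 h vs. 0 h and 20 at 48 h vs. 0 h. Over all genes 1639 and 1753 were then higher, against 1733 and 2834 without the covariate. The ratio changed with time in culture, so RNA quality and time cannot be told apart here.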

How the data were processed

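RNA from 15 samples was measured on RG230-2 arrays of Affymetrix. From the scans the authors made MAS5 signals, scaled each array to 500 and left out arrays that failed quality control. The deposited values are linear signal intensity, 1 column per array, and 0 columns were left without a sample. The sources name both Command Console MAS 5.0 and the affy package, and the choice between them is not stated there. No 2 arrays held identical values.

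Signals were taken to log2 and averaged over technical arrays, so the rat was the replicate. Probe sets with a signal above the median of their array in at least 10% of arrays (5 of 43) were kept, and each gene was represented by 1 of its probe sets, that with a single gene symbol in GEO's platform annotation and the highest mean log2 signal. Of 31099 probe sets, 20832 had 1 gene symbol and 436 several. Changes were tested in 1 limma 3.58.1 fit over 15 samples (lmFit and eBayes in R 4.3.3), with Benjamini-Hochberg adjustment over 10644 genes within each of 10 comparisons and a threshold of 0.05. With 3 rats a group, the smallest two-sided p of an exact permutation test is 0.1. The fit was run on simulated data with independent noise per sample and no rat effect, so that run did not check the pairing by rat.

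Samples of a rat come from the same animal: residuals from the group means had a median correlation of 0.34 in 30 pairs of the same rat and -0.18 in 60 pairs of different rats. Blocking on the rat was therefore an alternative.

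The members, role groups and comparison lists were chosen with earlier results of these data known, so no p-value over a list is given. Every member may be named. Values of each sample are given for Rrp12, Nolc1, Ncl, Fbl, Polr1b, Ubtf and Nob1, for the largest and smallest change of each role group at 4 h vs. 0 h, for the 2 largest falls and rises at 48 h vs. 4 h, for members not called at 4 h and for Myc. Values of Gar1, Dkc1, Heatr1, Polr1a, Tsr1, Gnl3, Utp6, Rrs1, Ebna1bp2, Nop16, Max, Mxd4, Mlxip and Hnf4a were added after they were seen. Promoters are those of RefSeq (GRCr8).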

Additional observations from a re-analysis of the deposited data

Results flagged for a closer look

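The probe sets of the listed genes that were not tested also had higher signals at 4 h than at 0 h, and these differences have no test. The Noc3l probe set, which was above the median of its array on 1 of 43 arrays, had signals of 97.5, 57.6 and 64.9 at 4 h, against 44.7, 23.5 and 33.8 at 0 h, a difference of 1.12 on the log2 scale in a range where the signal is dim. The 3 probe sets annotated to Npm1 (nucleophosmin, a nucleolar chaperone) together with Npm1-ps9 differed by 1.56, 1.08 and 1.40 on the log2 scale. The brightest of them had 17892, 17464 and 18152 at 4 h, against 8417, 8773 and 8047 at 0 h, with no overlap. At 24 h vs. 0 h these 3 probe sets differed by 1.67, 0.88 and 1.40 and at 48 h vs. 0 h by 1.10, 0.73 and 1.33. Signal from the gene and from the other locus cannot be told apart.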

How the results depend on the processing

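The counts of members kept their direction under every alternative run, and the 4 h counts moved least: 49 to 53 members were higher at 4 h vs. 0 h under the other settings and 47 to 52 when a rat or sample was left out, and 35 to 46 and 36 to 43 were lower at 48 h vs. 4 h. At 24 h vs. 0 h leaving out a rat or sample gave 26 to 39, at 4 h vs. liver 45 to 54 and at 24 h vs. liver 25 to 40. Results that moved were those at 48 h and the step between 4 h and 24 h. At 48 h vs. 0 h 14 members had an adjusted p under 0.01, and leaving out a rat or sample gave 8 to 27. At 24 h vs. 4 h leaving out gave 20 to 36 members lower. At 48 h vs. liver 41 members were higher with median centring of arrays and 15 at an adjusted p under 0.01, and leaving out gave 11 to 28. Pairing the samples, with a replicate block for the rat, gave 51 members higher at 4 h vs. 0 h, 42 at 24 h and 32 at 48 h, and without the liver samples, an alternative chosen after seeing the data, 53, 44 and 34. Under the block 1 member, Nop10, was lower at 48 h vs. 0 h (log2 fold change -0.39). It also called Bms1 at 4 h vs. 0 h, Polr1e, Ncl, Utp15, Heatr1, Ddx10 and Nip7 at 48 h vs. 0 h, and Ddx10 and Nmd3 at 48 h vs. 4 h, and changed no other call of a member in these 3 comparisons. Fewer rats leave fewer degrees of freedom, and other causes were not tested. Of 57 members, 8 had a call at 4 h vs. 0 h that changed under some setting, 14 at 48 h vs. 4 h and 31 at 48 h vs. 0 h. Limits are 3 rats, 1 array type, dim probe sets without a detection call, and a scaling that assumes equal mean signal.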
